A study of Mus musculus with 383 samples.

Results

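Cartpt encodes the precursor of cocaine- and amphetamine-regulated transcript (CART) peptides, and its row of the count table was followed across single nuclei of the mouse dorsal motor nucleus of the vagus. It is 1 gene of 29779 in the table, read over the 316 of 383 nuclei that had at least 1000 genes with a read. The nuclei came from male Chat-IRES-Cre mice on a C57BL/6 background, in which Cre recombinase is made where choline acetyltransferase is expressed. At 10 weeks of age all of these mice received 100 nL of the virus AAV9-DIO-H2b-mCherry, which marks nuclei red only where Cre is active, and tissue was taken 16 days later. The tissue was pooled, nuclei carrying mCherry and a DNA dye were sorted singly into wells, and the labels name no animal. The labels name the dorsal motor nucleus for injection and dissection, but 1 step of the protocol speaks of sections around the SCN, and this was not resolved. All nuclei therefore form 1 sample with no control group, and no difference between nuclei was given a p-value.

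CART precursor protein is cut by the prohormone convertases encoded by Pcsk1 and Pcsk2 into secreted peptides that are packed in dense-core vesicles. CART is known for reducing food intake when given into the brain, and it is found in hypothalamic, spinal autonomic and vagal neurons. No receptor for it is generally accepted; the orphan receptor encoded by Gpr160 has been proposed. The vagal motor nucleus holds the cholinergic neurons that send preganglionic fibres to the gut and other viscera, so a peptide gene found in only some of them marks a difference among neurons that share 1 fast transmitter.

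Cartpt (ENSMUSG00000021647.7) lies on the minus strand of chromosome 13 from 99898489 to 99901091 (GRCm38, GENCODE M21), and no other annotated gene overlaps it. It is a short gene of 2603 bases with 3 exons and 2 annotated transcripts. The transcripts differ in coding length, 387 against 348 bases without the stop codon, by a stretch at the start of exon 2, chr13:99900041-99900079. Below, the longer transcript is the one with the longer coding sequence. That stretch is shown because the gene-level counts do not separate the longer from the shorter precursor. A second sequence is the cyclic AMP response element of the promoter, a site known to control this gene, TGACGTCA, in capitals within a 30-base window at chr13:99900777-99900806 on the minus strand (RefSeq promoter, GRCm38.p6).

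Cartpt exon 2 stretch present in the longer transcript only: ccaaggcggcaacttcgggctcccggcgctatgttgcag

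Cartpt promoter window with the response element: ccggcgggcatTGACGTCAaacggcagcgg

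The element begins 112 bases before the RefSeq transcription start, and the longer first exon of 1 GENCODE transcript also covers it. It reads the same on both strands and was found in 1.55% of 32851 RefSeq promoter windows cut to the same 250 bases before the start. A TATA box (TATAAA) and the T-box motif (AGGTGTGA), searched on both strands, were not found in those 250 bases of Cartpt, and they were present in 12.4% and 1.12% of the windows. These are letter matches only.

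Depth set the precision of what follows. The 316 nuclei had a median of 1440080 reads (1590 to 4699420) and 11234.5 genes with a read, from 1040 genes in the shallowest. The 67 nuclei under the limit had at most 988 genes and a median of 2328 reads. Mitochondrial genes took at most 4.82% of reads in any nucleus used. Intervals are exact Clopper-Pearson 95% intervals over nuclei. They cover counting error only, since reads copied by PCR and not tagged by molecule can repeat 1 molecule, and nuclei of pooled mice are not replicate animals.

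Cartpt was present in some of these nuclei, and its level varied widely among them. At least 1 Cartpt read was found in 115 of 316 nuclei (36.4%, 31.1 to 42.0). Of the 67 nuclei under the gene limit, 1 had a Cartpt read (1.49%, 0.0378 to 8.04). At 500000 reads drawn from each nucleus, which 295 nuclei reached and 21 did not, Cartpt was found in 105 (35.6%, 30.1 to 41.3). Leaving out the 21 shallower nuclei and thinning the others together kept the share inside the interval found at full depth. The effect of thinning alone was not separated. Nuclei with Cartpt were not the deeper ones, with a median of 1401070 reads against 1488680 in nuclei without it.

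Most positive nuclei had far more than a single read. Only 3 nuclei had exactly 1 Cartpt read, while 101 (32.0%, 26.9 to 37.4) had at least 5, 79 (25.0%) at least 20 and 41 (13.0%) at least 100. Among the 115 positive nuclei the lowest level was 0.30 reads per 1000000 reads (RPM), the median 40.2 and the highest 1025 RPM. The quartiles stood at 9.42 and 154.0 RPM. Counted by level, 30 nuclei were under 10 RPM, 51 from 10 to under 100 and 34 at 100 RPM or more. No level range was empty between the low and the high nuclei on this coarse division. The 12 highest nuclei held 50.6% of the Cartpt RPM summed over all nuclei. Requiring 10 RPM in place of 1 read lowered the share to 26.9% (22.1 to 32.1).

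The labels number the nuclei and say that plates had 96 wells, but not which nucleus was on which plate, so runs of 96 numbers served as a check for uneven handling. Cartpt was found in 27 of 80 nuclei (33.8%, 23.6 to 45.2) of the first run, 29 of 80 (36.3%, 25.8 to 47.8) of the second, 23 of 74 (31.1%, 20.8 to 42.9) of the third and 36 of 82 (43.9%, 33.0 to 55.3) of the fourth. The intervals of all 4 runs overlapped. The median level of positive nuclei was 23.3, 38.3, 22.5 and 78.1 RPM in the same order. The fourth run was highest in both, and leaving it out gave a share of 33.8%. At its end, every nucleus numbered 377 to 384 had a Cartpt read, from 1 read in nucleus 380 to 212 in nucleus 378. Some of these were shallow, with 48990 reads in all in nucleus 381 and 9273 in nucleus 383. The part of this stretch in the share of the fourth run was not tested.

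**Figure D1:**
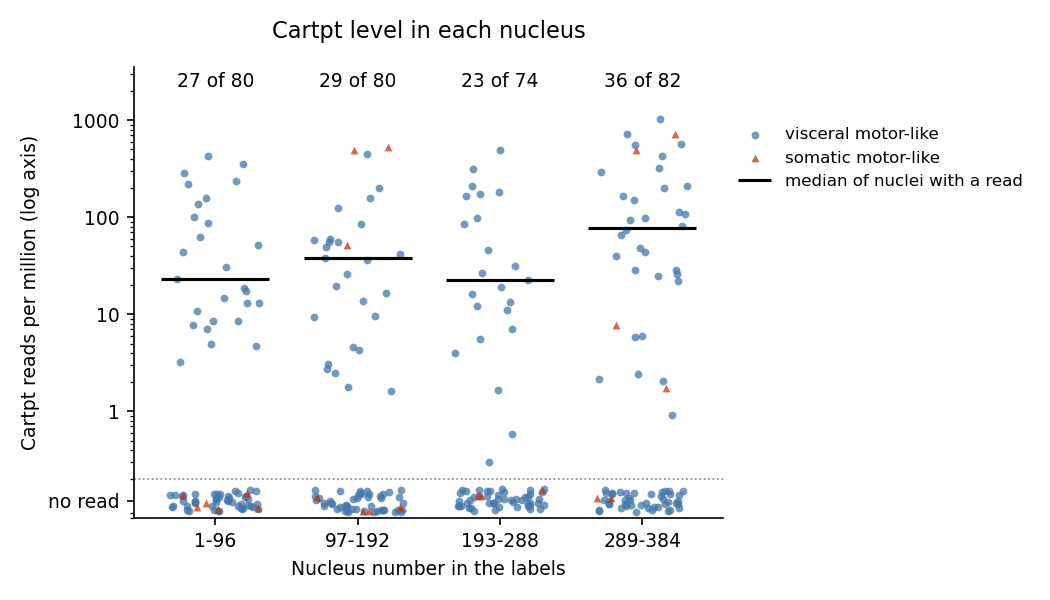
Cartpt level of each of the 316 nuclei in RPM (log axis), by run of 96 nucleus numbers. Points below the dotted line had no read, triangles are somatic motor-like nuclei, the bar is the median of nuclei with a read, and the counts above give nuclei with a read of all nuclei; positive nuclei lie between 0.30 and 1025 RPM.

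Cartpt was found in nuclei of visceral and of somatic motor-like clusters. Nuclei were clustered with Cartpt and all listed genes left out, and each cluster was assigned to a motor neuron class by its share of visceral markers (among them Tbx20, Tbx2 and Tbx3) or somatic markers (Mnx1, Lhx3, Lhx4, Chodl, Calca, Mmp9). Visceral motor neurons reach autonomic ganglia and somatic ones reach skeletal muscle. This gave 294 visceral and 22 somatic motor-like nuclei. At 500000 reads Cartpt was found in 98 of 273 visceral (35.9%, 30.2 to 41.9) and 7 of 22 somatic motor-like nuclei (31.8%, 13.9 to 54.9). The difference of 4.08 percentage points had a 95% interval of -17.5 to 20.6 points (Newcombe's method), so this number of somatic motor-like nuclei does not tell a difference of that size from none.

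The 7 somatic motor-like nuclei with Cartpt had 721.9, 523.5, 491.8, 491.6, 52.4, 7.84 and 1.74 RPM. The 108 visceral motor-like nuclei with Cartpt ranged from 0.30 to 1025 RPM with a median of 37.3. At least 100 RPM was reached by 4 of 22 somatic (18.2%, 5.19 to 40.3) and 30 of 294 visceral motor-like nuclei (10.2%, 6.99 to 14.2), with overlapping intervals. Summed over all nuclei of a class, Cartpt made up 80.6 RPM in the somatic and 30.9 RPM in the visceral class, and the somatic value rested on the 4 highest nuclei.

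Among visceral motor-like nuclei Cartpt was unevenly spread over clusters that were built without it. Of 11 clusters, the 10 with at least 8 nuclei at 500000 reads were compared. The share was highest in cluster 9, with 11 of 17 nuclei (64.7%, 38.3 to 85.8), cluster 1, with 23 of 41 (56.1%, 39.7 to 71.5), and cluster 4, with 15 of 30 (50.0%, 31.3 to 68.7). It was lowest in cluster 5, with 3 of 32 (9.38%, 1.98 to 25.0), and cluster 8, with 2 of 19 (10.5%, 1.30 to 33.1). The intervals of clusters 9, 1 and 4 each lay above that of cluster 5, and those of clusters 9 and 1 above that of cluster 8. In between, cluster 7 had 40.9%, cluster 2 39.5%, cluster 3 33.3%, cluster 6 27.3% and cluster 10 18.8%, and no 2 neighbours in the order had intervals apart.

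The clusters carry numbers only, and the genes leading them describe them without naming a type. Cluster 9 was led by Bmpr1b, a bone morphogenetic protein receptor, Syt10, a synaptotagmin, and Syndig1. Cluster 1 was led by Sstr5 and Npy2r, receptors for somatostatin and for neuropeptide Y and peptide YY, and by Rgs4. Cluster 5 was led by Fign, Ntng2 and Olfm3, and cluster 8 by Hs6st2, Pappa, Ccbe1 and Cckar, the receptor for gut cholecystokinin. Sstr5, Npy2r and Cckar had taken no part in building the clusters. Level and share gave different orders: the median over positive nuclei was 14.8 RPM in cluster 9, 28.6 in cluster 1, 66.7 in cluster 4 and 85.0 in cluster 2. Clusters 3 and 4 had more glutamatergic marker RNA than the other clusters compared: these markers were found in 32.2% and 31.1% of their nuclei on average, against 5.88% in cluster 9. Cluster 3 was also the highest of those compared for markers of inhibitory neurons (30.0%), oligodendrocytes (42.0%), astrocytes (43.3%), microglia (34.0%) and vessels (45.8%). The part of such RNA in the Cartpt shares of clusters 3 and 4 was not tested.

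**Figure D2:**
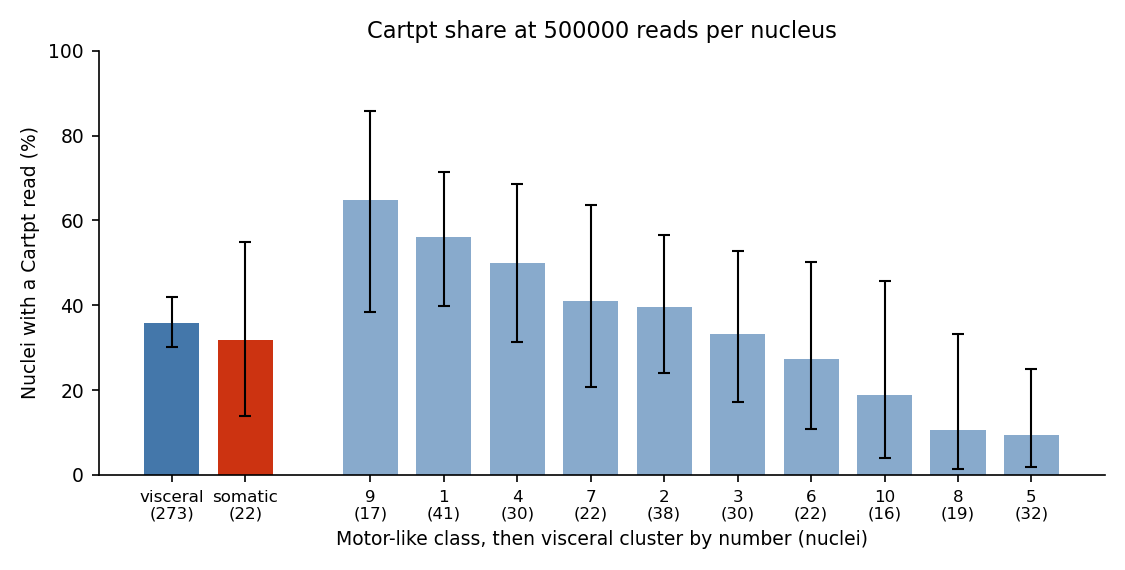
Share of nuclei with a Cartpt read at 500000 reads per nucleus, for the motor-like classes and for the 10 visceral clusters in falling order, with the number of nuclei in brackets and exact 95% intervals as bars. The classes stand at 35.9% and 31.8%, and the clusters run from 64.7% to 9.38%.

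The next comparison asked which genes were found together with Cartpt. The 105 nuclei with a Cartpt read and the 190 without were compared at 500000 reads for every gene present in at least 5% of nuclei. A gene was called where its share differed by at least 20 percentage points and the exact intervals did not overlap. Of 20758 genes, 157 were called higher (0.756%), 20 lower (0.0963%) and 177 in either direction (0.853%) in nuclei with Cartpt. The median difference over all genes was 1.40 points.

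Cholinergic identity was common to both sets. Chat, the acetylcholine-synthesising enzyme, was found in 98.1% of nuclei with Cartpt and 96.3% of those without, and Nos1, neuronal nitric oxide synthase, in 95.2% and 90.5%. Markers of other cell types gave no call. Their mean share was 33.7% with and 29.1% without Cartpt for oligodendrocytes, 23.0% and 20.4% for astrocytes, 16.6% and 15.2% for microglia, 17.5% and 13.5% for glutamatergic and 11.9% and 12.9% for inhibitory neurons. Visceral motor markers had a mean share of 64.8% with and 47.5% without Cartpt. Among all markers frequent enough to compare, only Tbx3, of the visceral motor list, was called.

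No other neuropeptide gene was called with or against Cartpt. Of 59 listed peptide genes 57 were in the table and 32 were frequent enough to compare, and 0 of them passed, against 0.853% of all genes. Their differences ran from -10.3 to 11.3 points, with a median of 1.53. The most frequent peptide genes in nuclei with Cartpt were Gal (galanin), Adcyap1 (the peptide PACAP) and Nucb2 (nesfatin), in 91.4%, 90.5% and 88.6%, and they were found in 88.9%, 84.2% and 85.8% of nuclei without it. The median nucleus had 7 listed peptide genes in both sets, so Cartpt came on top of a peptide set that was of like size without it.

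The rarer peptides overlapped Cartpt only in part. Grp, gastrin-releasing peptide, was found in 15.2% (9.0 to 23.6) of nuclei with and 7.89% (4.5 to 12.7) without Cartpt. Sst, somatostatin, was found in 13.3% and 5.26%, and Vip, vasoactive intestinal peptide, in 12.4% and 7.37%. Pdyn, prodynorphin, was found in 7.62% (3.3 to 14.5) and 15.3% (10.5 to 21.2), Cck in 7.62% and 11.6%, and Penk, proenkephalin, in 16.2% and 18.9%. The intervals of each of these pairs overlapped. The difference itself had a Newcombe interval of -0.01 to 16.0 points for Grp, -14.5 to 0.38 for Pdyn and -10.5 to 3.75 for Cck, so a miss of the limit does not show equal shares. For Sst it did not include 0, at 1.40 to 16.2 points, and neither did that for Pomc, pro-opiomelanocortin, at 2.19 to 18.6 points. Pomc was found in 17.1% of nuclei with and 7.37% without Cartpt. At full depth, 21 nuclei had both Cartpt and Grp, which is 18.3% of the Cartpt nuclei and 63.6% of the 33 Grp nuclei, and 94 had Cartpt without Grp. The widest differences of the list were for Agt (angiotensinogen, 18.1% against 6.84%) and Nppb (a natriuretic peptide, 12.4% against 22.6%), with intervals of the difference of 3.59 to 20.2 and -18.4 to -0.90 points, both under the size needed for a call.

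The machinery that makes CART was nearly universal in both sets. Pcsk2, Pcsk1n, a convertase inhibitor, and Cpe, which trims the cut peptides, were found in all 105 nuclei with Cartpt and in 97.9%, 99.5% and 100% of the others. Pcsk1 was found in 96.2% (90.5 to 99.0) and 84.7% (78.8 to 89.5), with intervals apart but a difference of 11.5 points. None of 16 processing and vesicle genes was called, against 0.853% of all genes, where shares near 100% leave little room for a difference. By level, Pcsk1 had a median of 224 RPM with and 118 RPM without Cartpt. Gpr160, the proposed CART receptor, was found in 12.4% (6.8 to 20.2) and 14.7% (10.0 to 20.6). At full depth it was found in 26 of the 115 nuclei with Cartpt (22.6%) and in 36 of the 201 without. Its difference ran from -2.61 to 4.70 points over the settings tried, so its direction was not stable.

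Receptors for peptides included genes on either side. Of 60 compared, 3 were called higher and 1 lower with Cartpt, against 0.756% and 0.0963% of all genes, and the list's median difference was 0.19 points. Npy2r was found in 79 of 105 nuclei with Cartpt (75.2%, 65.9 to 83.1) and in 44.2% (37.0 to 51.6) without. Its median level was 84.0 RPM with Cartpt and 0 RPM without, and the highest nuclei reached 632.0 and 616.0 RPM, so the sets overlapped in level. Sstr5 was found in 64.8% (54.8 to 73.8) and 38.4% (31.5 to 45.7), and Ntsr1, a neurotensin receptor, in 52.4% and 27.4%. Cckar went the other way, in 16 of 105 nuclei with Cartpt (15.2%, 9.0 to 23.6) and in 40.5% (33.5 to 47.9) without. Insr, Igf1r and Adcyap1r1, the receptors for insulin, insulin-like growth factor 1 and PACAP, were found in at least 93.7% of both sets.

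Read from the receptors, the pattern was graded. Cartpt was found in 67 of 115 nuclei with Npy2r and without Cckar (58.3%, 48.7 to 67.4). It was found in 4 of 45 nuclei with Cckar and without Npy2r (8.89%, 2.48 to 21.2). Nuclei with both receptors had Cartpt in 25.0% (13.6 to 39.6) and nuclei with neither in 25.3% (16.6 to 35.7). This pair of receptors was chosen after their values were seen.

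Of 44 compared receptors for small transmitters, 3 were called, all more often found with Cartpt, against 0.756% of all genes called higher. Chrna6, a nicotinic receptor subunit, was found in 52.4% (42.4 to 62.2) of nuclei with and 24.7% (18.8 to 31.5) without Cartpt, with mean levels of 53.9 ± 83.2 RPM (SD, n = 105 nuclei) and 10.3 ± 29.0 RPM (SD, n = 190 nuclei). P2rx2, an ATP-gated channel, was found in 67.6% (57.8 to 76.4) and 40.5% (33.5 to 47.9). Adra2a, an adrenergic receptor, was found in 60.0% and 40.0%, which is just at the limit, and it was not called when at least 5 Cartpt reads were required or when the 60 nuclei richest in other cell types' markers were left out. Chrnb2, Chrna3 and P2rx4 were frequent in both sets, at 97.1%, 81.0% and 89.5% with Cartpt and 91.6%, 76.8% and 82.6% without.

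Of 13 calcium-binding and nitric oxide genes, 2 were called, both higher with Cartpt, against 0.756% of all genes. Calb1, calbindin, was found in 55 of 105 nuclei with Cartpt (52.4%, 42.4 to 62.2) and in 20.5% (15.0 to 27.0) without, with mean levels of 62.2 ± 113.4 and 7.47 ± 26.8 RPM (SD, n = 105 and 190 nuclei). Calb2, calretinin, was found in 48.6% (38.7 to 58.5) and 27.9% (21.6 to 34.8), and its call held in 3 of 6 alternatives, being lost at full depth, at 250000 reads and without the 60 nuclei richest in other cell types' markers. At full depth, 58 nuclei had both Calb2 and Cartpt, 57 had Cartpt without Calb2 and 65 had Calb2 without Cartpt. The other 11 genes compared, among them Hpcal1 and Ncald, were not called.

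Of 53 transcription factors, 4 were called higher with Cartpt, against 0.756% of all genes, and the median difference was 5.36 points. Tbx3, a T-box factor of visceral motor neurons, differed most of all 20758 genes. It was found in 82 of 105 nuclei with Cartpt (78.1%, 69.0 to 85.6) and in 39.5% (32.5 to 46.8) without, with median levels of 22.0 and 0 RPM. Hoxa5 and Hoxb5, which set position along the hindbrain and spinal axis, were found in 59.0% and 83.8% with Cartpt and 34.2% and 62.1% without; the Hoxb5 call was lost without the 60 nuclei richest in other cell types' markers. Jund, an AP-1 factor, was found in 77.1% and 56.8%, a call that held in 2 of 6 alternatives and was lost at full depth, with at least 5 Cartpt reads, in a second draw and without those 60 nuclei. Taking Tbx3 and Calb1 together, a pair chosen after seeing their values, Cartpt was found in 45 of 66 nuclei with both (68.2%, 55.6 to 79.1), 40.7% with Tbx3 alone, 35.7% with Calb1 alone and 13 of 110 with neither (11.8%, 6.45 to 19.4).

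**Figure D3:**
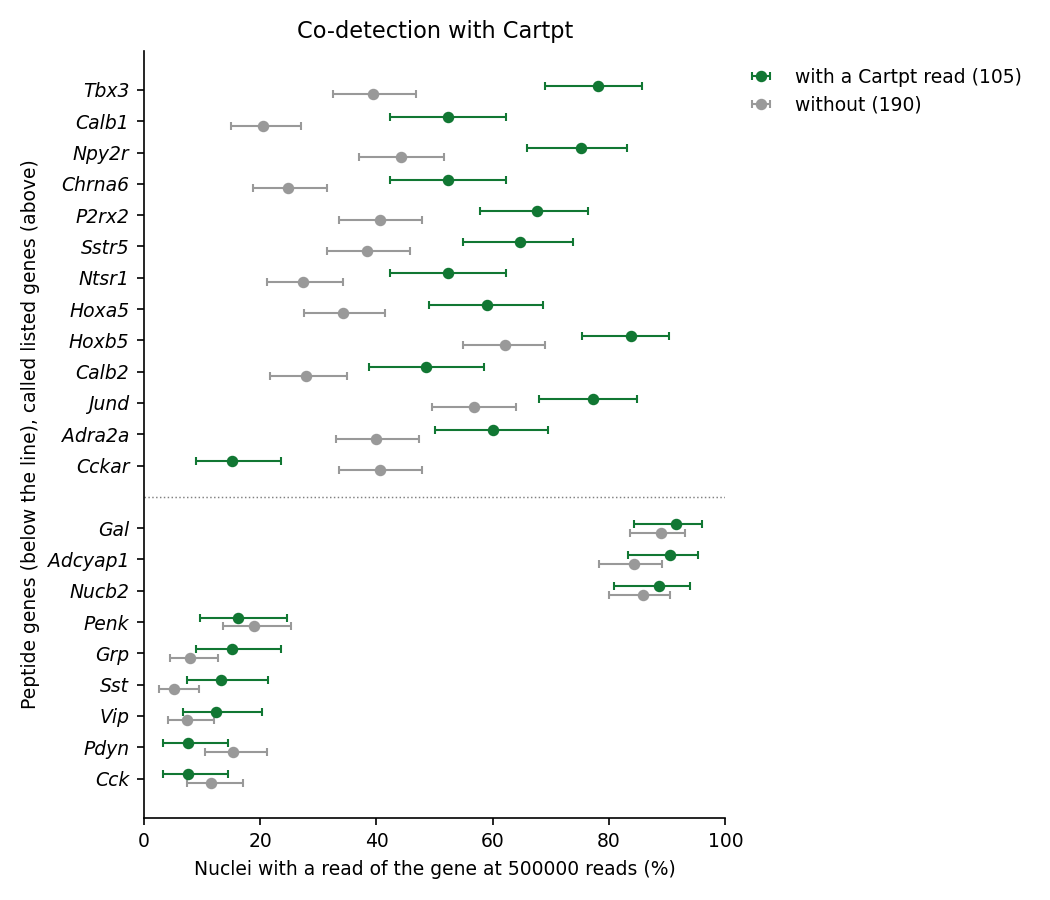
Share of nuclei with a read of each gene at 500000 reads, in the 105 nuclei with Cartpt (green) and the 190 without (grey), with exact 95% intervals. Above the dotted line the called listed genes from Tbx3 (78.1% against 39.5%) to Cckar (15.2% against 40.5%), below it peptide genes, whose intervals overlap.

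These differences were also present inside finer divisions of the nuclei, which shared the nuclei that chose the genes and so add no independent support. In each of the 4 runs of nucleus numbers the 12 listed genes called higher were more frequent with Cartpt and Cckar less frequent. For Tbx3 the difference ran from 27.1 to 51.3 points over the runs, for Calb1 from 26.9 to 40.9, for Npy2r from 19.8 to 45.4 and for Cckar from -44.7 to -17.2. In visceral motor-like nuclei alone, Tbx3 differed by 40.8 points, and by 32.4 points after weighting the differences within the 11 clusters, where it was higher with Cartpt in 8 and lower in 3. The within-cluster difference was 30.8 points for Calb1, 24.1 for Chrna6, 25.9 for P2rx2 and -27.6 for Cckar. It was 15.5 for Npy2r against 33.2 over all visceral nuclei, 14.6 for Sstr5 against 27.7 and 11.0 for Hoxb5 against 22.3.

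The make-up of the RNA differed with Cartpt as well, most in the mitochondrial share. Nuclei with Cartpt carried 0.126% mitochondrial reads in the median against 0.0615%, 0.226% on ribosomal protein genes against 0.187%, and 50.1% on genes of at least 100 kb against 53.5%. The 157 genes called higher were short, with a median span of 8.84 kb, and the 20 called lower long, at 81.1 kb, against 24.3 kb over all genes compared. With nuclei split at the median mitochondrial share and the differences averaged over both sides, the difference was 37.5 points for Tbx3, 30.1 for Calb1, 28.6 for Npy2r and -28.0 for Cckar. It was 8.11 points for Jund, against 20.3 without the split. Hoxa5 had 18.3, Hoxb5 17.4, Adra2a 16.9 and Calb2 20.1 points in the same split.

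Levels were then compared by rank across the 295 nuclei, using log2 of RPM plus 1 at 500000 reads. Spearman's rho with Cartpt is given here as a description, since the nuclei share 1 preparation. Of 17528 genes found in at least 10% of nuclei, 65 had rho of 0.3 or more (0.371%), 28 had -0.3 or less (0.16%) and 93 were past either limit (0.531%). All correlations lay between -0.46 and 0.49, with a median of 0.02, so no gene tracked Cartpt closely. All 93 had the same sign in each of the 4 runs of nucleus numbers. They were picked over these same nuclei, so this adds no independent support. Of 184 listed genes in this comparison, 8 were past the limit. Of the 16 processing genes, Pcsk1 (0.31) and Cadps, a vesicle priming factor (0.30), were past the limit; Cadps was chosen after its value was seen.

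Genes with predicted or clone names (such as Gm and a number, or Rik) were left out of the naming here and below. The genes most like Cartpt were then Syt10 (rho 0.49, 0.37 to 0.59 over the runs) and Bmpr1b (0.46). Rgs7bp, a binding protein of regulators of G-protein signalling (0.46), and Slc12a7, a potassium-chloride cotransporter (0.45), followed. Syt10 was found in 83.8% (75.3 to 90.3) of nuclei with Cartpt and 47.9% (40.6 to 55.2) without, at medians of 126 and 0 RPM and up to 1046 and 770 RPM. Bmpr1b had medians of 418 and 23 RPM, and the highest nuclei of the sets reached 3208 and 2958 RPM. Both genes were thus higher in most Cartpt nuclei, while the sets overlapped in level.

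Next in order came Igsf21 (0.43), Ghr, the growth hormone receptor (0.43), Id1 (0.43), Trem2 (0.42), Parm1 (0.42), Tbx3os1, a transcript beside Tbx3 (0.42), Kcng1, a potassium channel subunit (0.40), and Id3 (0.39). Id1 and Id3 encode inhibitors of basic helix-loop-helix factors that bone morphogenetic protein signalling is known to induce. Id1 was found in 42.9% (33.2 to 52.9) of nuclei with Cartpt and 11.6% (7.40 to 17.0) without, and Id3 in 32.4% and 6.32%. Trem2, best known as a microglial receptor, was found in 39.0% (29.7 to 49.1) and 7.37% (4.09 to 12.1). The microglial marker genes Csf1r, Cx3cr1 and P2ry12 were found in 12.4%, 28.6% and 8.57% of nuclei with Cartpt and 9.47%, 29.5% and 6.84% without.

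Genes running against Cartpt had long spans in the median. Lowest were the potassium channel genes Kcnb2 (rho -0.46, -0.58 to -0.36 over the runs) and Kcnh7 (-0.44). The glutamate receptor genes Grik2 (-0.42), Grin3a (-0.41) and Grm7 (-0.40), and Ldlrad4 (-0.41), RMST_1 (-0.39) and Lemd1 (-0.38) followed. Kcnb2 was found in every nucleus of both sets, at medians of 1260 RPM with and 2106 RPM without Cartpt. Lemd1 was found in 38.1% (28.8 to 48.1) and 71.1% (64.0 to 77.4). The 28 genes at or under -0.3 had a median span of 436.5 kb and the 65 at or over 0.3 one of 45.0 kb, against 28.9 kb over all genes compared. Across nuclei, Cartpt itself had rho -0.19 with the share of reads on genes of at least 100 kb, 0.30 with the mitochondrial share and -0.10 with the number of reads, and the part of these in the correlations was not tested.

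**Figure D4:**
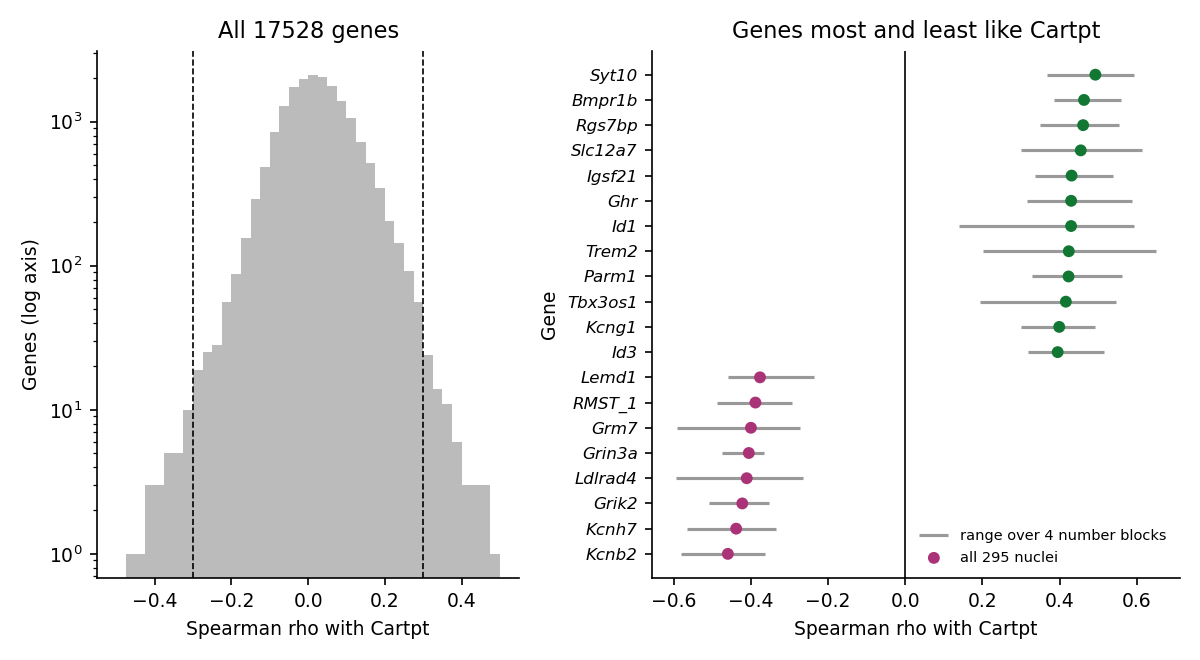
The left panel counts genes (log axis) by Spearman's rho with Cartpt over all 17528 genes, with dashed lines at -0.3 and 0.3. The right panel shows the 12 highest and 8 lowest genes, with predicted genes left out. Dots are the values across 295 nuclei, and lines span the 4 runs of nucleus numbers. From Syt10 (0.49) to Kcnb2 (-0.46), every line lies on the same side of 0 as its dot, which was required of the genes named.

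Among the Cartpt-positive nuclei alone the size of these relations varied. Kcnb2 had rho -0.44 within positive nuclei, Grik2 -0.39, Id1 0.32 and Bmpr1b 0.31, while Kcng1 had 0.14 and Tbx3os1 0.18. For the shares, the 295 nuclei were divided into 190 with no Cartpt, 23 under 10 RPM, 49 from 10 to under 100 RPM and 33 at 100 RPM or more. Syt10 was found in 47.9%, 82.6%, 83.7% and 84.8% of them in that order. Its share was near its ceiling in all positive bins, while its median level there was 50, 112 and 240 RPM, with rho 0.26 within positive nuclei.

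The shares of Id1, Id3 and Chrna6 are given by the same bins as a description, since Id1 and Id3 were picked for their correlation with Cartpt level, and Chrna6 for its difference with Cartpt, in these same nuclei. Id1 was found in 11.6% of nuclei without Cartpt, 17.4% under 10 RPM, 38.8% in the middle and 66.7% (48.2 to 82.0) at 100 RPM or more. Chrna6 went from 24.7% through 34.8% and 49.0% to 69.7%, and Id3 from 6.32% through 13.0% and 24.5% to 57.6%. For Chrna6 the intervals of the lowest positive bin (16.4 to 57.3) and the highest (51.3 to 84.4) overlapped. Tbx3 was found in 39.5%, 69.6%, 81.6% and 78.8%, and Npy2r in 44.2%, 60.9%, 77.6% and 81.8%. Cckar was found in 40.5% without Cartpt and in 21.7%, 12.2% and 15.2% of the positive bins. Grp, in 7.89%, 17.4%, 20.4% and 6.06%, was no more frequent at the highest Cartpt levels than without Cartpt.

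**Figure D5:**
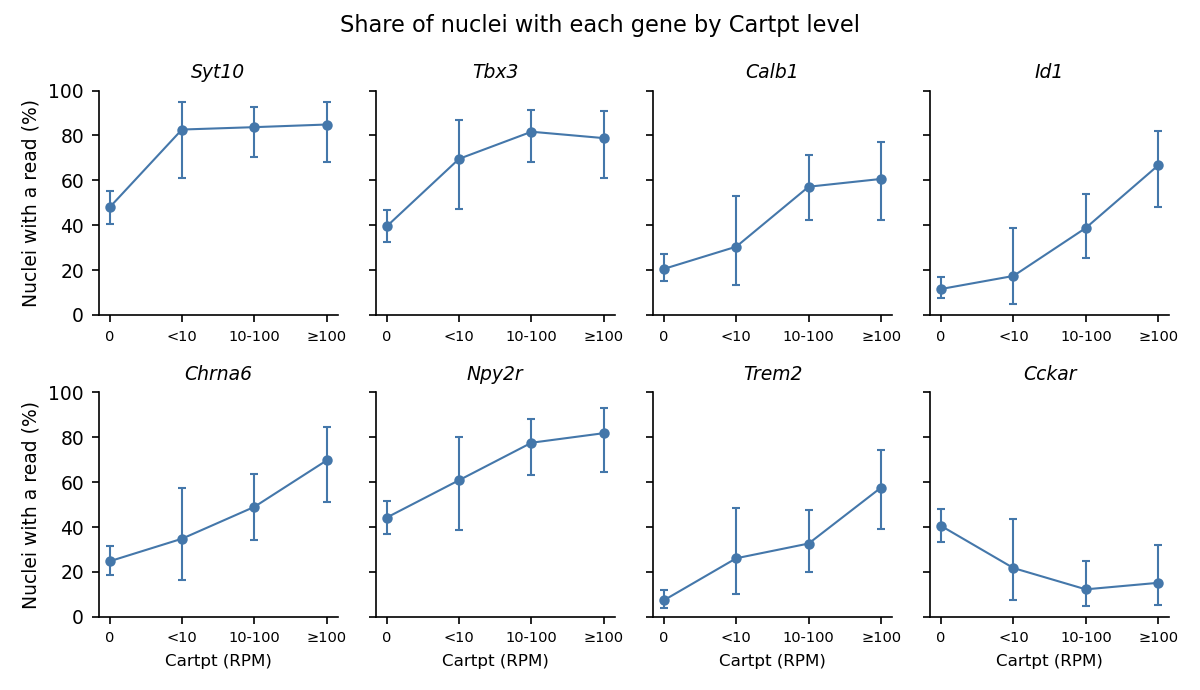
Share of nuclei with a read of a gene at 500000 reads, by Cartpt level in RPM (0, under 10, 10 to under 100, 100 and above), with exact 95% intervals as bars. Id1 goes from 11.6% to 66.7% over the bins and Cckar from 40.5% to 15.2%.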

How the data were processed

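The authors sorted single mCherry-positive nuclei and prepared Smart-seq2 libraries without molecular identifiers, per the labels' protocols. The submitters' processing notes name build GRCm38 and bcl2fastq, STAR, Picard, edgeR and Seurat 3, without roles; annotation and strand setting of the counting are not given in the sources used here. The deposited table holds whole-number read counts per gene for 383 nuclei. Cartpt, the gene lists and the comparisons were chosen with earlier results of these data known.

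Nuclei with at least 1000 genes with a read were kept, with no doublet caller, as 1 nucleus was sorted per well. Each was thinned to 500000 reads. Genes in at least 5% of nuclei were compared between nuclei with and without Cartpt and called at 20 points or more with exact 95% intervals apart. The script was tested on simulated data. Clusters came from scanpy 1.11.5 (2000 variable genes, 15 components, 10 neighbours, Leiden resolution 1), with 325 genes left out: Cartpt, listed and marker genes. Mitochondrial and ribosomal protein genes were left out in addition. Named were all called listed genes, the most frequent genes of each list, and genes of prior interest. The 12 highest and 8 lowest correlations were also named, after leaving out genes with predicted or clone names. Gene spans came from GENCODE M21, matching 95.3% of genes. The alternatives tried were full depth, 250000 reads, a second draw, at least 5 Cartpt reads, visceral nuclei only, other clusterings and other correlation scales.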

Additional observations from a re-analysis of the deposited data

How the results depend on the processing

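No paired analysis was possible because all nuclei form 1 group with no numbered replicates. The 11 main results were recomputed in 66 comparisons, of which 57 stayed near the main value and 9 moved. The Cartpt share was 26.9% at 10 RPM or more, and 33.8% to 38.0% without 1 run of nucleus numbers. At full depth 287 of 21999 genes were called, 278 higher and 9 lower (main: 157 and 20 of 20758), of which 141 were among the main 177. Transcription factors called were 7 at full depth and 8 at 250000 reads, where 225 of 19781 genes were called in all. A second draw of reads called 5 transmitter receptors, and 243 of 20750 genes in all. Leaving out the 60 nuclei richest in other cell types' markers, chosen after seeing the data, called 7 peptide receptors and 2 transcription factors, Tbx3 and Hoxa5. Over all genes that setting called 232 of 19543, so calls rose beyond these lists in each of the 4 settings. Correlated genes numbered 147 in visceral motor-like nuclei and 59 by Pearson's r with a pseudocount of 10 (main: 93). The cause was not tested. No peptide gene was called under any of the 6 alternatives, where the list was short and most of its genes too rare to be called lower. Npy2r, Sstr5, Ntsr1, Cckar, Chrna6, P2rx2, Calb1, Tbx3 and Hoxa5 were called under all 6. Pooled animals leave no measure of the spread between mice, and a gene not read at 500000 reads may still be expressed.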
